A study of Mus musculus with 32 samples.

Results

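The 2 transcripts described here, uc007mqv.1 (5284 nt) and uc007msi.2 (1908 nt), were selected because they rose with potassium chloride (KCl) depolarization in cultured mouse cortical neurons. They were chosen from the measured values themselves, as the 2 of 51884 transcript models with the smallest p among those that rose in the KCl comparison of the input libraries, had a mean level of at least 1 on the log2 CPM scale and a log2 change of at least 0.5. CPM are read counts relative to the size of the library, with that size scaled here so that a few very abundant transcripts do not set the level of all others. Both names are UCSC transcript identifiers, and the deposited files pair no identifier with a gene. Of the 51884 identifiers, 0 matched the reference gene tables used here. The lengths identified neither transcript, since 2 transcripts of the mouse reference annotation (GENCODE vM21) shared the length of uc007mqv.1 and 17 that of uc007msi.2, each in as many genes. The transcripts are therefore given by identifier, with no gene, genome position or sequence.

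Primary mouse cortical neurons were transduced with a doxycycline-inducible lentivirus that carried TurboID, either with a tag that placed it with PSD95 in dendrites (TurboID-PSD95) or with no localization signal (Pan-TurboID). All 32 libraries came from neurons given cycloheximide for 2 min and then biotin for 30 min, with RNA then fixed to protein by a UV pulse of 400 mJ/cm2 and another of 200 mJ/cm2. Depolarized neurons were silenced for 2 h with tetrodotoxin and DL-AP5, exposed to 55 mM KCl for 1 h and left for 30 min before harvest, whereas for resting neurons the labels name neither the silencing drugs nor KCl. From each lysate 15% was kept as input, and the rest went to the streptavidin pulldown. The 2 states, 2 constructs and 2 fractions gave 8 groups of 4 libraries: resting and depolarized Pan inputs, resting and depolarized PSD95 inputs, and the matching pulldowns. Each input represents a whole culture in which not every cell need express the construct, whereas a pulldown holds the RNA recovered with streptavidin. The identity of the cells was not checked because the identifiers name no marker genes. In such bulk samples, fewer cells of a type and less RNA per cell cannot be told apart.

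Raised extracellular KCl depolarizes the neuronal membrane and lets calcium enter, and the calcium signal switches on a programme of activity-regulated transcription whose early members are transcribed within minutes and whose later members follow over hours. TurboID is a biotin ligase that marks proteins close to it, and PSD95 is a scaffold protein of the postsynaptic density, the protein network beneath excitatory synapses. An RNA crosslinked to a biotinylated protein is recovered on streptavidin beads, so that a pulldown samples the RNA bound to marked proteins and the input samples the RNA of the whole lysate.

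The libraries held 2949123 to 19323465 reads (median 9301823). A single other transcript took 2.08% to 84.8% of the reads of a library (median 14.5%) and more than 50% in 6 libraries, of which 5 were from replicate 3 and 1 was the depolarized Pan input of replicate 4. Outside the 3 most abundant transcripts 612945 to 17632500 reads were left. Between 32.2 and 2670 estimated reads per library were assigned to uc007mqv.1, a counting error of 1.94% to 17.6%. For uc007msi.2 they numbered 461 to 21274, with a counting error of 0.686% to 4.66%. Intervals and errors of this kind cover counting error only. The estimates were within 0.001 of a whole number in 2 of 32 libraries for uc007mqv.1 and in 1 of 32 for uc007msi.2, so that both transcripts shared estimated reads with other transcript models in nearly every library and their levels carry that uncertainty. The free-text descriptions of 8 libraries, all of replicate 2, name the opposite state to their titles. The titles were followed here, and values under the descriptions are given with the results that they change.

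In the Pan inputs, uc007mqv.1 was present at 33.5, 25.1, 31.97 and 19.1 CPM in resting replicates 1 to 4 and at 153, 133, 127 and 86.9 CPM in depolarized replicates 1 to 4. The PSD95 inputs held 37.7, 23.6, 23.6 and 25.1 CPM at rest and 126, 91.7, 141 and 109 CPM after depolarization. Every depolarized input of either construct lay above every resting input, with no overlap. Group means were 27.4 ± 6.66 CPM (SD, n = 4) in resting and 125 ± 27.7 CPM in depolarized Pan inputs, and 27.5 ± 6.84 CPM and 117 ± 21.3 CPM in the PSD95 inputs. The lowest depolarized value, that of the Pan input of replicate 4, came from the library in which 84.8% of reads belonged to 1 other transcript and rested on 84 reads, with a 95% Poisson interval of 69.3 to 108 CPM. That interval also stayed above every resting value.

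The pulldowns gave the same picture for uc007mqv.1. At rest the Pan pulldowns held 35.2, 32.5, 29.4 and 32.3 CPM, and after depolarization 141, 144, 121 and 108 CPM. The PSD95 pulldowns held 35.1, 25.6, 25.8 and 35.7 CPM at rest and 128, 91.7, 146 and 130 CPM after depolarization. Resting and depolarized libraries did not overlap in either construct. The resting PSD95 pulldown of replicate 3 rested on the fewest reads, 32.2, which places its level between 17.7 and 36.4 CPM (95% Poisson interval).

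The level of uc007msi.2 was high already at rest, and its rise was smaller in proportion. In the Pan inputs it was 865, 727, 679 and 667 CPM at rest and 1570.5, 1331, 1095 and 1164 CPM after depolarization, and in the PSD95 inputs 911, 839, 664 and 901 CPM at rest and 1316, 1190.4, 996 and 1415 CPM after depolarization. Group means were 734 ± 90.7 (SD, n = 4) and 1290.3 ± 211 CPM in the Pan inputs and 829 ± 114 and 1229 ± 181 CPM in the PSD95 inputs. Resting and depolarized inputs were again separate within each construct.

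In the Pan pulldowns uc007msi.2 was at 529, 490, 390 and 561 CPM at rest and at 946, 1046, 589 and 723 CPM after depolarization, without overlap, although the depolarized library of replicate 3 lay only just above the highest resting one. In the PSD95 pulldowns the 2 states overlapped: resting replicates held 625, 584, 370 and 495 CPM and depolarized replicates 656, 690, 505 and 673 CPM. Replicate 3 was the lowest of its group in all 4 pulldown groups. Its resting PSD95 pulldown had 73.9% of reads in 1 other transcript and its depolarized PSD95 pulldown 70.2%, and the part of this in the low values was not tested. The PSD95 pulldown was the single arm of the 4 in which the states of either transcript overlapped. Among all transcripts tested, 2.09% were called as rising with KCl in the Pan inputs, 0.904% in the PSD95 inputs, 3.45% over both inputs, 3.30% in the Pan pulldowns and 3.89% in the PSD95 pulldowns (limma, adjusted p under 0.05). These shares are another measure than separation, and the share of all transcripts whose states separate without overlap was not counted. Since the choice of the 2 transcripts used this contrast, nothing is read from the separation itself.

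**Figure D1:**
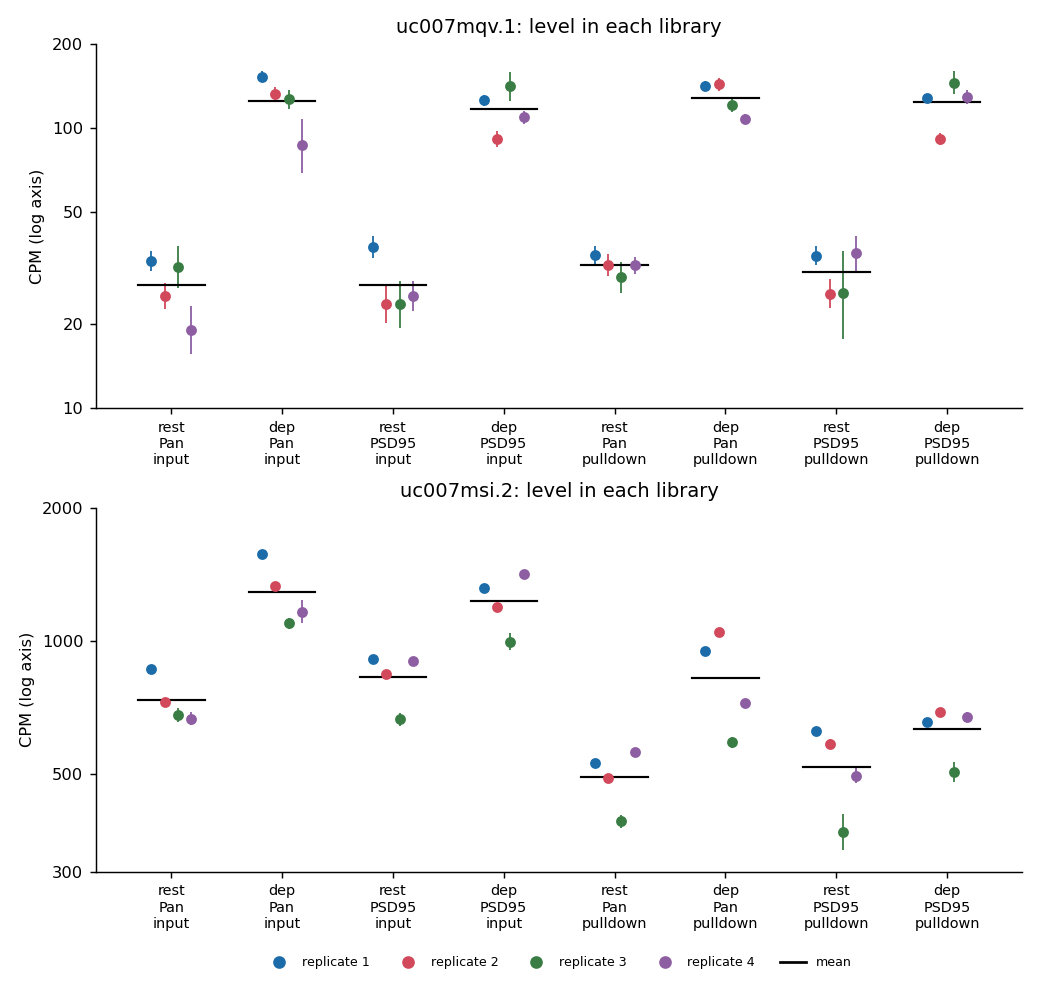
Level of each transcript in every library, in CPM on log axes, for the 8 groups of 4 libraries. Points are libraries coloured by replicate, vertical lines are 95% Poisson intervals for counting error and black bars are group means. Resting and depolarized uc007mqv.1 levels are separate in every arm, and those of uc007msi.2 in all but the PSD95 pulldown.

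Paired within replicates, uc007mqv.1 rose in 16 of 16 pairs of a depolarized and a resting library, by 3.33-fold to 5.95-fold (median 4.05-fold). The log2 change per replicate was 2.18 ± 0.17 (SD, n = 4) in the Pan inputs, 2.09 ± 0.36 in the PSD95 inputs, 1.98 ± 0.17 in the Pan pulldowns and 2.01 ± 0.32 in the PSD95 pulldowns. The means of the 4 arms therefore lay closer together than the replicates within the PSD95 arms. Replicate 3 gave the highest value in both PSD95 arms, 5.95-fold in the input and 5.61-fold in the pulldown, where the other replicates ranged from 3.33-fold to 4.33-fold and from 3.56-fold to 3.64-fold. In that replicate the depolarized PSD95 input and both PSD95 pulldowns were libraries with over 50% of reads in 1 other transcript. Without the 6 such libraries the log2 change was 2.29, 1.93, 1.96 and 1.85 in the same order of arms. This took away replicates 3 and 4 of the Pan inputs and replicate 3 of each other arm.

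By the same pairing, uc007msi.2 also rose in 16 of 16 pairs, by 1.05-fold to 2.14-fold (median 1.50-fold), and its arms differed more. The log2 change was 0.81 ± 0.08 (SD, n = 4) in the Pan inputs, 0.57 ± 0.06 in the PSD95 inputs, 0.72 ± 0.31 in the Pan pulldowns and 0.30 ± 0.18 in the PSD95 pulldowns. The 4 Pan inputs (1.61-fold to 1.83-fold) all rose by more than the 4 PSD95 inputs (1.42-fold to 1.57-fold). In the Pan pulldowns the replicates were widely spread, from 1.29-fold to 2.14-fold. The PSD95 pulldowns rose least, by 1.05-fold to 1.37-fold. Leaving out the 6 libraries dominated by 1 other transcript gave 0.87, 0.56, 0.77 and 0.25, from the same remaining replicates as for uc007mqv.1.

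**Figure D2:**
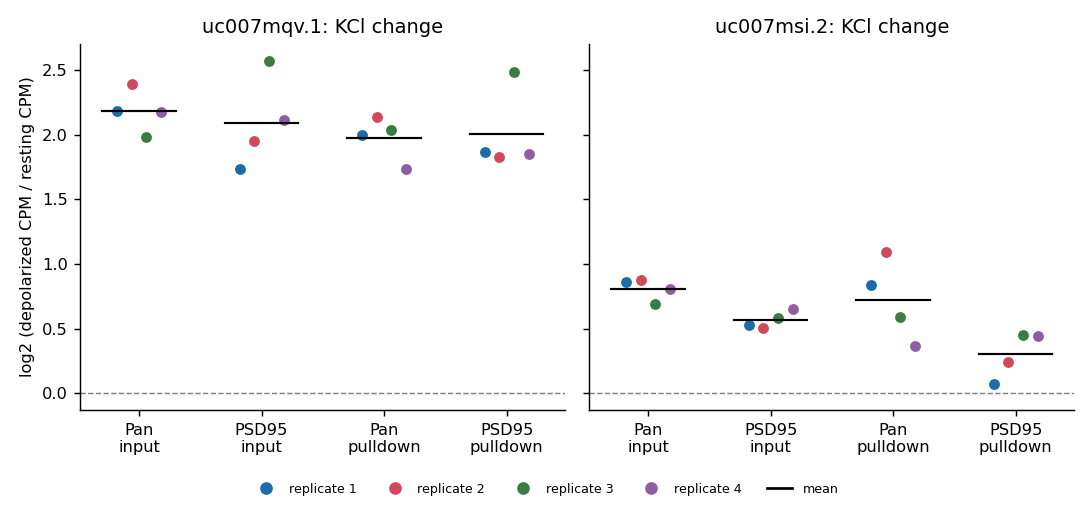
KCl change of each transcript per replicate and arm, as the log2 ratio of depolarized to resting CPM. Points are replicates, black bars are means and the dashed line marks no change. All 16 values of each transcript lie above 0, near 2 for uc007mqv.1 and between 0.07 and 1.09 for uc007msi.2.

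Models that estimated the groups of a fraction together, with inputs and pulldowns fitted apart, are given as a description of the values behind the choice. Sizes were near those per replicate, although lower in the PSD95 pulldowns, at 0.18 against 0.30 for uc007msi.2. For uc007mqv.1 the fitted log2 change was 2.21 ± 0.14 (SE) in the Pan inputs, 2.01 ± 0.15 in the PSD95 inputs, 1.92 ± 0.13 in the Pan pulldowns and 1.89 ± 0.15 in the PSD95 pulldowns. For uc007msi.2 it was 0.89 ± 0.05, 0.59 ± 0.05, 0.63 ± 0.08 and 0.18 ± 0.09, the last with a 95% confidence interval from -0.01 to 0.36. Over both inputs the changes were 2.11 ± 0.11 and 0.74 ± 0.03. The small errors, more than the sizes of the changes, placed the pair first: 428 transcripts passed the test as rising and met the level and size limits of the rule, and by size alone uc007mqv.1 ranked 93 and uc007msi.2 ranked 986 of the 15181 transcripts with a mean of at least 1 on the log2 CPM scale. Ordered by p, uc007msi.2 came ahead of uc007mqv.1, and the next transcript, just outside, had a change of 1.62 ± 0.09 at a mean log2 CPM of 5.55, close to the mean of 5.61 of uc007mqv.1.

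Within groups, the SD of log2 CPM was 0.28 for uc007mqv.1, against a median of 0.36 over 1606 transcripts of similar level, and 0.26 for uc007msi.2, against a median of 0.28 over 46. The size of the KCl change depended on how libraries were scaled. With plain library totals the median coefficient of variation within a group was 41.4% for uc007mqv.1 and 46.4% for uc007msi.2, against 18.4% and 14.9% with the TMM scaling used here. Under plain totals the mean log2 change of uc007mqv.1 was 1.28 in the Pan inputs and 1.59 in the PSD95 inputs, and that of uc007msi.2 was -0.11 and 0.06. Scaling by the total without the 3 most abundant transcripts, or by RLE size factors, kept every KCl value of both transcripts within 1 SD of the values given above. Under the states named in the descriptions, replicate 2 would have fallen in every arm, and the mean log2 change would have been 0.91 to 1.12 for uc007mqv.1 and 0.18 to 0.37 for uc007msi.2.

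The comparison of pulldown with input asks whether a transcript was bound to biotinylated proteins to a greater or lesser degree than its share of the lysate. It uses a different contrast from the one that chose the transcripts, but shares the input libraries with it. A choice by rise in the inputs favours high depolarized and low resting input values. This would tend to lower the depolarized ratio and raise the resting one, by an amount that was not tested. The choice also favours small errors in the inputs, so the p-values of this comparison tend to be too small. For uc007msi.2 the pulldown was below the input of the same replicate, construct and state in 16 of 16 pairs, at 0.476 to 0.842 of the input level (median 0.591). For uc007mqv.1 the pulldown was higher in 11 pairs and lower in 5, at 0.919 to 1.69 of the input level (median 1.07).

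In resting neurons uc007msi.2 passed the test in both constructs. Its Pan pulldown mean of 493 ± 74.2 CPM (SD, n = 4) compared with an input mean of 734 CPM, which the fit put at a log2 ratio of -0.61 ± 0.09 (SE, limma adjusted p = 3.37e-05). In the Pan pair 9.45% of the 34696 transcripts tested were called in either direction. Its PSD95 pulldown mean of 518 ± 113 CPM compared with 829 CPM in the input, a log2 difference of -0.57 ± 0.14 (limma adjusted p = 0.0107), where 7.25% of transcripts were called. This PSD95 call rested on the choices made: in 8 of 13 alternatives, with no replicate block among them (adjusted p = 0.0769), it no longer passed, although the difference stayed between -0.69 and -0.45. Leaving out replicate 1 gave the largest adjusted p, 0.328, at a log2 difference of -0.56, and leaving out replicate 3 gave 0.0813. Without the 6 libraries dominated by 1 other transcript the difference was -0.54 with an adjusted p of 0.104.

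After depolarization uc007msi.2 again passed in both constructs. The Pan pulldown stood at 826 ± 208 CPM (SD, n = 4) and its input at 1290.3 CPM, a log2 difference of -0.95 ± 0.07 (SE, limma adjusted p = 1.53e-09), or 0.518 of the input, where 8.04% of transcripts were called. The PSD95 pulldown stood at 631 ± 85.0 CPM and its input at 1229 CPM, a log2 difference of -0.98 ± 0.07 (limma adjusted p = 2.74e-10), or 0.509 of the input, where 12.8% were called. Both calls, and the Pan call at rest, held in each of the 13 alternatives, which all used these inputs or a part of them. The fit had no term for the lysate that a pulldown shared with its input. Its errors and p-values therefore do not measure the spread of these pairs, at rest or after depolarization. The plain means over the paired replicates differed from the fit, most in depolarized Pan. They were -0.58 ± 0.24 (SD, n = 4) at rest and -0.67 ± 0.23 after depolarization in Pan, and -0.69 ± 0.19 and -0.96 ± 0.12 in PSD95. The fit without quality weights also gave -0.95 in depolarized Pan, and the cause of the difference was not tested. There the fitted 0.518 of the input lay below every replicate, since these ranged from 0.538 to 0.785 of the input. Over the 13 alternatives this depolarized Pan difference ran from -1.03 to -0.58, with edgeR at -0.66 and DESeq2 at -0.58. Its size was therefore less sure than its direction. Over all transcripts the median log2 difference was between 0.04 and 0.15 in the 4 comparisons, so that uc007msi.2 lay below the general level of the pulldowns. It was not among the extremes of all transcripts tested, since 15.7% to 23.0% of them had a lower difference. These include many of low level. Among the 16759 with a mean of at least 1 on the log2 CPM scale, ranks were counted from the highest difference. There it ranked 14512 in Pan and 12824 in PSD95 at rest, and 15342 and 14823 after depolarization.

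For uc007mqv.1 none of the 4 comparisons passed. In the Pan libraries the fitted log2 difference was 0.20 ± 0.17 (SE) at rest, with a 95% confidence interval from -0.14 to 0.55, and -0.11 ± 0.10 after depolarization, from -0.32 to 0.10. In the PSD95 libraries it was 0.18 ± 0.20 at rest (from -0.22 to 0.59) and 0.02 ± 0.08 after depolarization (from -0.14 to 0.19). The limma adjusted p ran from 0.517 to 0.896. An increase or decrease of the size that the limma fit gave for uc007msi.2 after depolarization lay outside all 4 intervals, and smaller differences could not be resolved.

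**Figure D3:**
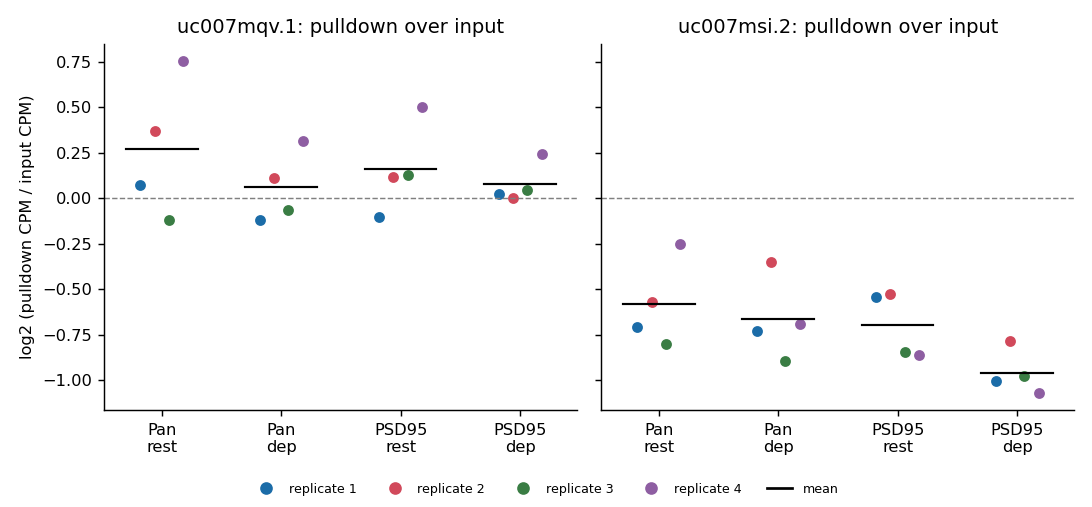
Ratio of pulldown to input CPM of each transcript, as log2, per replicate in the 2 constructs and 2 states. Points are replicates, black bars are means and the dashed line marks equal levels. All 16 values of uc007msi.2 lie below 0, from -1.07 to -0.25, and those of uc007mqv.1 lie on both sides, from -0.12 to 0.76.

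The scaling of libraries also bears on this ratio, as a check added after the data were seen. The pulldown of uc007msi.2 was below its input in 16 of 16 pairs with TMM scaling, with RLE size factors and with totals that left out the 3 most abundant transcripts, and in 12 of 16 pairs with plain totals, where the mean of the depolarized Pan pairs changed sign to 0.51. The ratio of pulldown to input was also set against itself in the 2 states. The log2 ratio after depolarization minus that at rest was -0.21 ± 0.21 (SD, n = 4) in Pan and -0.08 ± 0.16 in PSD95 for uc007mqv.1, and -0.08 ± 0.27 in Pan and -0.27 ± 0.14 in PSD95 for uc007msi.2, with 4 of 4 replicates below 0 in the last. These differences equal the KCl change in the pulldown minus that in the input and are given as a description.

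Within a library, the ratio of the 2 transcripts does not depend on the scaling. On the TPM scale, which divides by transcript length, uc007msi.2 was 81.1 ± 16.9 (SD, n = 4) times as abundant as uc007mqv.1 in resting Pan inputs and 90.4 ± 17.0 times in resting PSD95 inputs. In the resting pulldowns the ratio was 44.5 ± 4.93 in Pan and 50.4 ± 12.1 in PSD95. Depolarized inputs gave 31.15 ± 6.15 in Pan and 31.9 ± 8.16 in PSD95, and depolarized pulldowns 18.6 ± 3.04 and 15.6 ± 4.89. The uc007msi.2 transcript was thus the more abundant per length in every library, and its lead was smaller after depolarization and smaller in pulldowns.

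From input to pulldown the log2 of this TPM ratio fell in 16 of 16 pairs, with a mean over replicates of -0.87 ± 0.23 (SD, n = 4), to 0.547 of the input ratio. An exact two-sided sign-flip test over the 4 replicates gave p = 0.125, the smallest that 4 replicates allow, and 0.225 after Benjamini-Hochberg adjustment over 9 comparisons of this kind, which were chosen after the data were seen. A design with 4 replicates cannot reach the 0.05 threshold by this test.

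**Figure D4:**
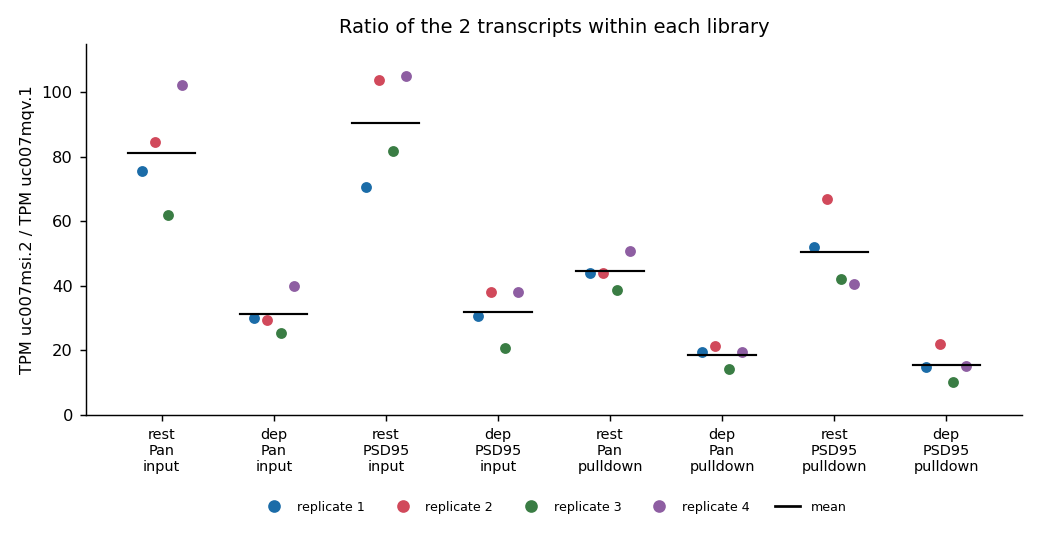
Ratio of the TPM of uc007msi.2 to that of uc007mqv.1 in each library, on a linear axis from 0, for the 8 groups. Points are libraries coloured by replicate and black bars are group means. The means fall from 81.1 and 90.4 in resting inputs to 18.6 and 15.6 in depolarized pulldowns.

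The comparison of TurboID-PSD95 with Pan-TurboID asks whether a transcript was recovered more from proteins marked near the postsynaptic construct than from proteins marked throughout the neuron. In resting pulldowns neither transcript passed the test, with a log2 difference of 0.01 ± 0.16 (SE, 95% confidence interval from -0.35 to 0.36, limma adjusted p = 0.996) for uc007mqv.1 and 0.09 ± 0.09 (from -0.10 to 0.28, adjusted p = 0.763) for uc007msi.2. In depolarized pulldowns uc007mqv.1 stood at -0.02 ± 0.10 (from -0.25 to 0.20, adjusted p = 0.959). The value of uc007msi.2 there was -0.36 ± 0.08 (from -0.53 to -0.20), with PSD95 below Pan in 4 of 4 replicates, but the limma adjusted p of 0.0997 missed the threshold. Few transcripts passed in these comparisons, 0.00922% of 32553 at rest and 0.129% after depolarization. The call of uc007msi.2 passed with no filter on low counts (-0.38, adjusted p = 0.0269) and without replicate 4 (-0.49, adjusted p = 0.0313), and in no other of the 13 alternatives. Without replicate 1 the difference was -0.21 (adjusted p = 1.00).

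The difference between constructs was also compared between states. Depolarized minus resting, the log2 ratio of PSD95 to Pan in pulldowns was -0.03 ± 0.20 (SE, limma adjusted p = 0.973) for uc007mqv.1 and -0.46 ± 0.12 (from -0.71 to -0.20, adjusted p = 0.170) for uc007msi.2, where 0.0215% of transcripts passed. Per replicate, the uc007msi.2 values were -0.77, -0.85, -0.14 and 0.08 in replicates 1 to 4, so that replicates 1 and 2 carried the mean. The fitted value was -0.17 without replicate 1 (adjusted p = 1.00) and -0.70 without replicate 4 (adjusted p = 0.0757). This quantity is also the difference in KCl change between the 2 constructs, in pulldowns from the cultures whose inputs chose the transcripts, and by this test neither transcript was shown to respond differently to KCl in the 2 kinds of pulldown.

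The inputs of the 2 constructs serve as the background for that comparison, since they sample the lysate before any pulldown. At rest the log2 difference of PSD95 from Pan inputs was 0.02 ± 0.17 (SE, limma adjusted p = 0.996) for uc007mqv.1 and 0.10 ± 0.05 (adjusted p = 0.850) for uc007msi.2. After depolarization it was -0.18 ± 0.10 (adjusted p = 0.567) and -0.20 ± 0.04 (from -0.29 to -0.11, adjusted p = 0.128). The depolarized value of uc007msi.2 in the inputs thus had the same sign as in the pulldowns, and it passed in 4 of 13 alternatives: with RLE size factors (adjusted p = 0.0259), without quality weights (0.0192), with no filter and without replicate 4 (0.0189). Without replicate 1 it was -0.0264. These 2 comparisons use the fit of the same input libraries that chose the transcripts for their small errors. Their p-values therefore tend to be too small, and nothing is read from the passes. Depolarized minus resting, the input difference per replicate was -0.09 ± 0.49 (SD, n = 4) for uc007mqv.1 and -0.24 ± 0.13 for uc007msi.2, below 0 in 4 of 4 replicates for the latter. It is given as a description with no test, because it equals the KCl change in PSD95 inputs minus that in Pan inputs, the values behind the choice. Of 27887 transcripts tested in the inputs, 0.0359% passed at rest, 0.0359% after depolarization and 0.0502% in the difference between states.

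**Figure D5:**
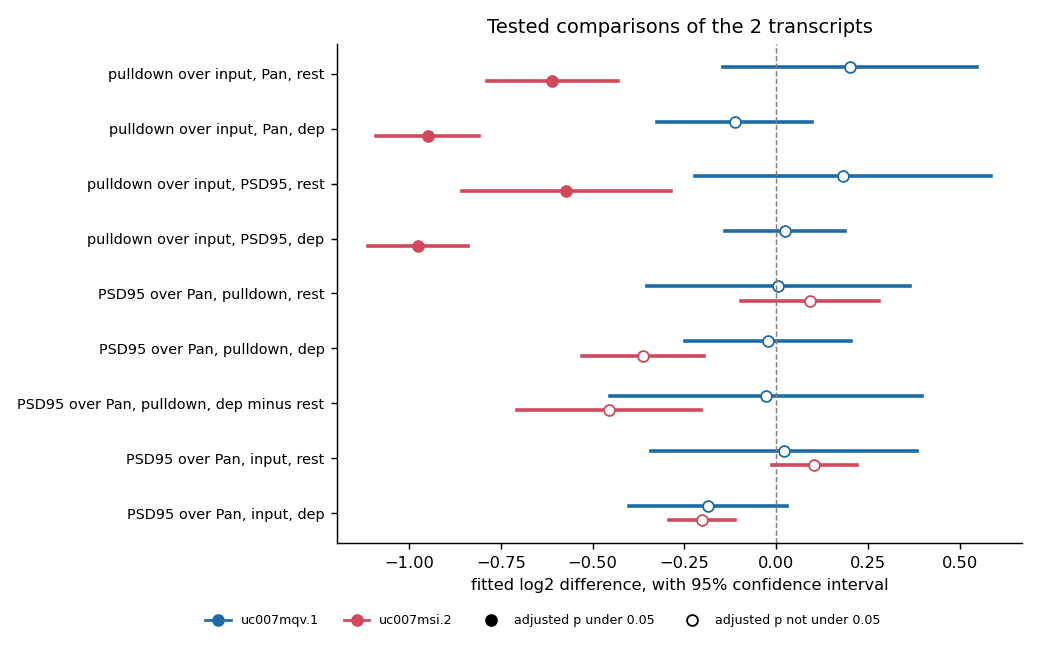
Fitted log2 differences of the 2 transcripts in the 9 tested comparisons, with 95% confidence intervals as horizontal lines. Filled points have a limma adjusted p under 0.05 and open points do not, and the dashed line marks no difference. The 4 filled points are the pulldown over input differences of uc007msi.2, from -0.98 to -0.57.

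Across the 32 libraries, after the mean of each fraction and replicate was removed, the log2 levels of the 2 transcripts moved together with a Pearson r of 0.91. Over 17748 transcripts compared in this way, 39 had r over 0.9 with uc007mqv.1 and 20 with uc007msi.2. The transcript most like uc007mqv.1 was uc008suf.1 (4305 nt, r = 0.967), whose mean was 3.36 CPM in resting and 33.9 CPM in depolarized libraries. The one most like uc007msi.2 was uc009ajk.2 (1920 nt, r = 0.965), at 795 CPM at rest and 1064 CPM after depolarization. These correlations are descriptions, since the libraries share depth, replicate and the KCl treatment for which the 2 transcripts were chosen.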

How the data were processed

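Neurons, groups and libraries are described above, and groups were taken from the sample titles. RNA (about 100 ng) entered a stranded, ribosomal RNA-depleted library protocol. The authors quantified reads with salmon against mm10 UCSC knownGene transcripts, with version and options not given in the sources used here. DESeq and limma are further tools in the submitters' notes. The deposited files hold estimated counts, in which reads matching several models are divided among them, and the authors' TPM values per library, with transcript lengths as deposited.

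Counts were rounded and fitted across all transcripts with limma 3.58.1 (voomWithQualityWeights) in R 4.3.3, with terms for group and replicate, TMM scaling and filterByExpr from edgeR 4.0.16, and Benjamini-Hochberg adjustment at 0.05. Inputs and pulldowns were fitted apart, and comparisons across fractions on all 32 libraries. Log2 CPM used a prior count of 2. The replicate term follows the study's methods, in which samples of a replicate were processed together. As a description of this pairing, the mean correlation of deviations from group means was 0.0931 in inputs and 0.0832 in pulldowns between same-numbered libraries, and -0.0291 and -0.0252 otherwise. Deviations cancel within a group, which by itself pushes the second pair of values to the opposite sign. The correlations were weak, and the lowest between same-numbered libraries was -0.0145 in inputs and 0.0023 in pulldowns. The p-values measure the spread between these libraries. No term stood for the lysate that a pulldown shared with its input. Scripts were tested on simulated data.

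Alternatives were DESeq2 1.42.0, edgeR's quasi-likelihood test, scaling by RLE, unweighted voom, an unfiltered table, a minimum mean CPM of 5, a model without the replicate block, the described states and omission of each replicate. The difference between states of PSD95 over Pan in inputs was planned as a test and is given as a description, since the choice of transcripts used those values. Leaving out the 6 libraries with over 50% of reads in 1 transcript was added later. The transcripts and comparisons were chosen with earlier results of these data known. Besides these 2, named transcripts are the one most alike to each by Pearson r over the 32 libraries. Gene lists and cell type markers were not analysed here, because the identifiers carry no gene names. Figures were drawn with matplotlib 3.10.9.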

Additional observations from a re-analysis of the deposited data

Results flagged for a closer look

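In 3 of 48 groups of 4 values 1 sample lay far from the others, by the share of the range that its gap to the nearest value took up, and chance gives about 5% of such groups. The KCl change of uc007mqv.1 in the PSD95 pulldowns was 2.49 on the log2 scale in replicate 3 and 1.83 to 1.86 in the others, a gap of 0.951 of the range. Both libraries of that replicate had over 50% of reads in 1 other transcript, and the resting one held 32.2 reads of uc007mqv.1. The level of uc007mqv.1 in resting PSD95 inputs was 5.24 log2 CPM in replicate 1 and 4.57 to 4.66 in the others, a gap of 0.862 of the range. The level of uc007msi.2 in depolarized PSD95 pulldowns was 8.98 log2 CPM in replicate 3, in a library with 70.2% of reads in 1 other transcript, and 9.36 to 9.43 in the others, a gap of 0.834 of the range. The part of the library composition in these values was not tested.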

How the results depend on the processing

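Of 404 alternative values over 40 results, 333 kept their direction and side of the threshold or moved by less than 1 SD, 34 changed direction, 9 passed where the reported value had not, 8 no longer passed and 20 moved by more. The cause was not tested unless named. For uc007msi.2 the resting PSD95 pulldown over input difference was -0.45 with RLE size factors, -0.57 without quality weights, -0.55 with no filter, -0.59 with no replicate block, -0.59 with the described states, -0.58 to -0.55 leaving out 1 replicate and -0.54 without the 6 dominated libraries, and all but some of the leave-one-out values no longer passed. For uc007mqv.1, whose tested differences were near 0, depolarized Pan pulldown over input turned to 0.0521 with edgeR, 0.12 with DESeq2, 0.0047 with RLE size factors, 0.14 with a minimum mean CPM of 5 and 0.0897 with the described states. Its depolarized PSD95 value turned to -0.0050 with no filter. Its PSD95 over Pan difference in resting pulldowns was -0.0770 with edgeR, -0.0759 without quality weights, -0.0095 with no filter and -0.0492 to 0.0722 leaving out 1 replicate. In depolarized pulldowns it was 0.0684 with a minimum mean CPM of 5, 0.0593 with the described states and -0.16 to 0.11 leaving out 1 replicate, and depolarized minus resting it was 0.0315 with edgeR and -0.18 to 0.0715 leaving out 1 replicate. In resting inputs it was -0.0352 with no replicate block and -0.0572 to 0.16 leaving out 1 replicate, in depolarized inputs 0.0121 with the described states, and in the difference between states -0.41 to 0.0165 leaving out 1 replicate. The replicate block changed no other call of the 2 transcripts.

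For uc007msi.2 PSD95 over Pan in resting pulldowns was -0.0108 with no filter and -0.0420 to 0.21 leaving out 1 replicate. In depolarized pulldowns it passed at -0.38 with no filter, and spanned -0.49 to -0.21 leaving out 1 replicate. In inputs, where the choice of the transcripts makes p-values tend to be too small, it passed with no filter at 0.0642 at rest and -0.17 after depolarization. Depolarized inputs also passed at -0.20 with RLE size factors and -0.21 without quality weights, and spanned -0.20 to -0.0264 leaving out 1 replicate. The fitted difference between states in inputs, reported without a test, was -0.23 with no filter and -0.33 without quality weights, against -0.31. With plain totals the KCl change of uc007mqv.1 was 1.28 in Pan inputs, 1.59 in PSD95 inputs and 2.34 in PSD95 pulldowns, and that of uc007msi.2 was -0.11, 0.0603 and 0.63. With the described states, which reverse the sign of replicate 2, the KCl change of uc007mqv.1 was 0.99, 1.12, 0.91 and 1.09 in Pan inputs, PSD95 inputs, Pan pulldowns and PSD95 pulldowns, and that of uc007msi.2 was 0.37, 0.32 and 0.18 in the first 3. Depolarized minus resting pulldown over input turned, with plain totals, to 0.78 in Pan and 0.75 in PSD95 for uc007mqv.1 and to 0.90 and 0.57 for uc007msi.2. In Pan for uc007msi.2 it was 0.00016 without the 3 most abundant transcripts, -0.19 to 0.0341 leaving out 1 replicate and 0.10 without the 6 dominated libraries. The last value rests on replicates 1 and 2 only. Replicate means of pulldown over input turned, with plain totals, to -0.0728 in resting PSD95 for uc007mqv.1 and to 0.51 in depolarized Pan for uc007msi.2.

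The median difference of all transcripts shifted most with no filter, by 0.30 in resting PSD95 and -0.23 in resting Pan pulldown over input, and with DESeq2, by 0.26 in depolarized PSD95 and 0.24 in depolarized Pan. RLE size factors shifted it by 0.17 and 0.20 in resting and depolarized PSD95. Transcripts called over all models numbered 2515 to 4433 in pulldown over input and 258 to 4425 under the alternatives, and 3 to 42 in PSD95 over Pan and 0 to 765 under the alternatives. Depth limits uc007mqv.1 most, with 32.2 reads in its shallowest library.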
